A study of Mus musculus with 3 samples.

Results

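The genes described here encode the ligands, receptors, secreted inhibitors and a few intracellular members of the Wnt pathway. They were chosen by a rule on names, set with earlier results of these data known. The rule took every row called Wnt, Fzd, Dkk, Sfrp, Rspo, Kremen or Axin with a number. It also took Lrp5, Lrp6, Wif1, Frzb, Porcn, Notum, Lef1 and Tcf7. This gave 53 of the 21881 gene rows of each table, 19 of them ligands, 10 Frizzled receptors and 11 secreted inhibitors or inactivators. Whole skin of FVB mice, an inbred albino laboratory strain, was profiled by RNA sequencing at E18.5 (days of embryonic life, shortly before birth), at P3 (days after birth) and in the adult at 10 weeks, 3 ages in all. The column heads call the mice of all 3 ages WT, and no allele or treatment is named. Each age is represented by 1 value per gene, headed as an average of the 2 biological replicates that the series design states. The spread between animals was not used here, so no difference below has a standard deviation, an interval or a p-value, and none was set against replicate error. Values are FPKM, fragment numbers scaled to transcript length and to the mapped fragments of the library, which allow levels of different genes to be compared per length.

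Wnt proteins are lipid-modified signals that bind a Frizzled receptor together with the co-receptor Lrp5 or Lrp6. Binding stops the Axin complex from destroying beta-catenin, which then enters the nucleus and acts through Lef1 and Tcf proteins; other Wnt signals act on cell polarity without beta-catenin. Secreted inhibitors either bind the ligands (the Sfrp proteins, Frzb and Wif1), block the Lrp co-receptor (Dkk1) or remove the lipid (Notum). In mouse skin the pathway is known for starting the hair follicles before birth, for hair growth, and for the exchange of signals between epidermis and dermis.

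A gene was called higher or lower at the later of a pair of ages when log2 of (FPKM + 1) differed by at least 1, a 2-fold difference on a scale that understates the change of low genes. This was done for rows that reached 1 FPKM at 1 or more ages. Of the 53 genes, 47 did so and 40 reached 1 FPKM at every age. The other 6, Wnt1, Wnt8a, Wnt8b, Wnt9b, Dkk4 and Rspo2, lay between 0.00569 and 0.927 FPKM and entered no count. At P3 against E18.5, 10 of the 47 were higher and 4 lower, while among all 14653 genes compared 9.56% were higher and 9.42% lower (19.0% in all). At 10 weeks against P3, 9 were higher and 15 lower, while of all genes 19.8% were higher and 9.98% lower (29.8% in all). At 10 weeks against E18.5, 5 were higher and 11 lower, while of all genes 16.1% were higher and 6.92% lower (23.0% in all). In the first comparison 21.3% of the members were higher, above the share of all genes, and 8.51% lower, near it. Of the members, 31.9% were lower at 10 weeks against P3 and 23.4% against E18.5, each above the share of all genes. The shares of members higher, 19.1% against P3 and 10.6% against E18.5, were near the background in the first and below it in the second. The second was not below it with a pseudocount of 0.1 FPKM, where 10 members and 19.9% of all genes were higher. The median log2 difference of the members was 0.23 for P3 over E18.5, with 0.03 over all genes. It was -0.36 for 10 weeks over P3, with 0.14 over all genes, and 0.10 for 10 weeks over E18.5, with 0.22 over all genes. Each age enters 2 of the 3 comparisons, which are therefore not independent of one another. Scaling the ages on their upper quartile shifts log2 ratios by -0.22 for P3 over E18.5, -0.08 for 10 weeks over P3 and -0.30 for 10 weeks over E18.5, and median-of-ratios scaling by -0.12, -0.10 and -0.22 in the same order. With upper-quartile scaling, 8 members were higher and 7 lower at P3 against E18.5, while of all genes 7.5% were higher and 12.6% lower. The share of higher genes among all those called in that comparison was 37.4% in place of 50.4%. At 10 weeks against E18.5 this scaling left 5 members higher and 12 lower, while of all genes 12.2% were higher and 9.2% lower. Among all genes called there, 57.0% were higher in place of 69.9%.

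Some members stood apart at 1 age by at least 2-fold from both others. At E18.5, 2 were highest in this sense, Sfrp2 and Dkk1, as were 2.91% of all genes, and 0 were lowest, as were 2.45%. At P3, 8 were highest, against 5.35% of all genes: the ligands Wnt4, Wnt7b, Wnt10a, Wnt11 and Wnt3a, the receptors Fzd10 and Fzd5, and Porcn. The 3 lowest at P3 were Sfrp2, Wnt2 and Frzb, against 5.54%. At 10 weeks, 5 were highest, Sfrp4, Sfrp1, Sfrp5, Frzb and Fzd4, against 12.3%. The 7 lowest at 10 weeks were Wnt6, Wnt7a, Wnt10b, Wnt16, Kremen2, Lef1 and Tcf7, against 3.51%. The adult maxima were thus about as frequent as among all genes, and 4 of the 5 are Wnt-binding inhibitors.

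**Figure D1:**
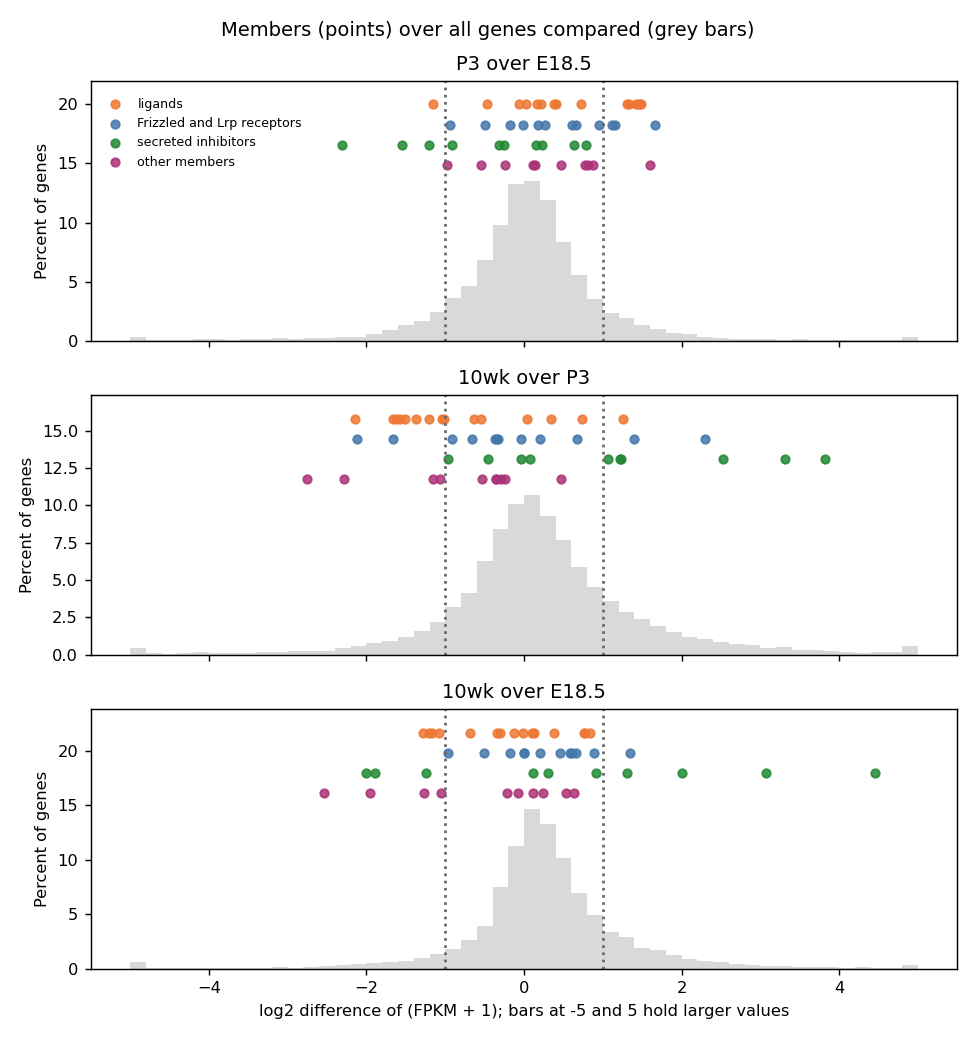
Log2 difference of (FPKM + 1) for P3 over E18.5 (top), 10 weeks over P3 (middle) and 10 weeks over E18.5 (bottom); points are Wnt genes by role, grey bars the percentage of all genes compared, and dotted lines the 2-fold threshold. Ligands lie to the right in the top panel (6 of 15 past the threshold) and to the left in the middle panel (9 of 15), where secreted inhibitors lie to the right (6 of 10). Of all genes, 9.56% lie past the threshold to the right in the top panel. In the middle panel 9.98% do so to the left and 19.8% to the right.

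The samples carried the epidermal markers of skin, with 2610 FPKM at E18.5, 6036 at P3 and 2601 in the adult summed over 7 basal keratinocyte genes. Markers of other cell types differed between the ages. At P3 against E18.5, 15 of 15 keratins of the hair shaft and inner root sheath were higher, and 7 of 8 fibroblast and 6 of 6 endothelial genes were lower. At 10 weeks against P3, all 7 skeletal muscle, 7 adipocyte and 6 macrophage genes of the lists were higher, and 15 of 15 hair keratins and 7 of 7 proliferation genes were lower. The E18.5 sample also differed in sex-linked genes: Xist had 0.0433 FPKM at E18.5, 64.6 at P3 and 73.0 in the adult. The Y-linked genes Eif2s3y and Ddx3y had 42.1 and 24.1 FPKM at E18.5, 0.0838 and 0.0218 at P3, and 0 in the adult. These are the values of male RNA at E18.5 and of female RNA at P3 and 10 weeks. Sex and age can therefore not be told apart in either comparison with E18.5. In such bulk samples, fewer cells of a type and less RNA per cell cannot be told apart.

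Most ligands had their largest value in the newborn: of the 15 compared, Wnt4, Wnt7b, Wnt3, Wnt10a, Wnt10b, Wnt5a, Wnt6, Wnt11, Wnt16 and Wnt3a did so. Over all members it was 25 of 47, while 33.8% of all genes compared had their largest value at P3. For Wnt5a and Wnt6 the P3 and E18.5 values differed by little. Of these 15, 6 were higher at P3 relative to E18.5 and 1 was lower, against 9.56% and 9.42% of all genes. From P3 to 10 weeks, 9 were lower and 1 was higher, against 9.98% and 19.8% of all genes. The median log2 difference of the ligands was 0.41 for P3 over E18.5, -1.04 for 10 weeks over P3 and -0.13 for 10 weeks over E18.5. Wnt4 (mm9 chromosome 4, 136833550 to 136852694), which can act with or without beta-catenin, was the most abundant ligand at every age, with 25.1 FPKM at E18.5, 70.2 at P3 and 15.1 in the adult. Its log2 difference was 1.45 for P3 over E18.5 and -2.14 for 10 weeks over P3. At P3 it lay above 91.5% of expressed genes. Wnt7b, a ligand of epidermis and follicle, followed the same course with 8.96 FPKM at E18.5, 26.9 at P3 and 8.81 in the adult. Wnt10a, mutated in human ectodermal dysplasias, showed 5.43 FPKM at E18.5, 16.2 at P3 and 7.39 in the adult. These ligands were therefore highest in the newborn, past 2-fold against both other ages.

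Wnt3, another ligand of the follicle epithelium, had 5.38 FPKM at E18.5, 16.6 at P3 and 10.4 in the adult; it was higher at P3 (log2 difference 1.47), and its 10-week value lay between those of the other ages. Wnt3a, used in culture to keep dermal papilla cells able to induce hair, was scarcer, with 1.15 FPKM at E18.5, 4.41 at P3 and 1.33 in the adult. Wnt11, a ligand of the beta-catenin-independent routes, had 4.02 FPKM at E18.5, 11.5 at P3 and 3.06 in the adult. With Wnt4, Wnt7b and Wnt10a, Wnt3a and Wnt11 made 5 ligands highest at P3. A pseudocount of 5 FPKM ends the P3-over-E18.5 calls of Wnt11, Wnt3a and Wnt2, and 5 of the 9 lower calls at 10 weeks against P3, leaving Wnt4, Wnt7b, Wnt10b and Wnt11.

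Other ligands were about as high before as after birth and lowest in the adult. Wnt10b, an early ligand of the hair placode, had 10.8 FPKM at E18.5, 14.3 at P3 and 3.85 in the adult. Wnt6 had 11.5 FPKM at E18.5, 12.9 at P3 and 4.39 in the adult, and Wnt16, known for its role in bone, had 7.33 FPKM at E18.5, 10.1 at P3 and 2.71 in the adult. All of these were lower at 10 weeks than at both earlier ages, as was Wnt7a, a limb patterning ligand, with 1.57 FPKM at E18.5, 1.48 at P3 and 0.220 in the adult. The 4 calls against E18.5 end with a pseudocount of 5 FPKM. Wnt5a, the main ligand of the polarity route and a product of the dermal papilla, differed by less than 2-fold in every comparison, with 11.5 FPKM at E18.5, 13.4 at P3 and 8.87 in the adult.

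Wnt2, a ligand known from mesenchyme, ran the other way. It showed 5.48 FPKM at E18.5, 1.91 at P3 and 5.93 in the adult, lower at P3 than at both other ages. Its relative Wnt2b had 1.28 FPKM at E18.5, 0.643 at P3 and 1.09 in the adult, under 2-fold. Wnt9a, known from joints, had 1.25 FPKM at E18.5, 1.30 at P3 and 2.80 in the adult, and Wnt5b, the closest relative of Wnt5a, had 1.20 FPKM at E18.5, 2.63 at P3 and 2.74 in the adult. The span of Wnt5b overlaps that of Fbxl14 (7.40 FPKM at E18.5, 8.62 at P3 and 8.75 in the adult), and the strand setting is not given in the sources used here, so the Wnt5b value is uncertain. Wnt2 was thus the 1 ligand lowest at P3 past 2-fold, but both of its calls end with a pseudocount of 5 FPKM. The 4 ligands under 1 FPKM at all ages, Wnt1, Wnt8a, Wnt8b and Wnt9b, did not exceed 0.283 FPKM.

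**Figure D2:**
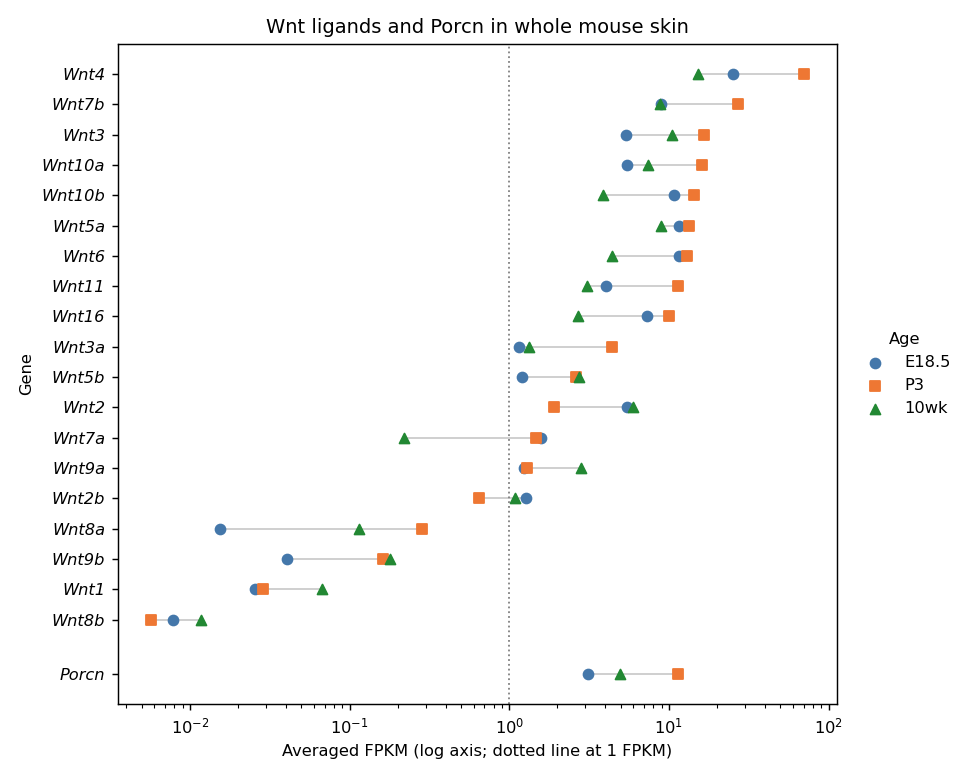
Averaged FPKM (log axis) of the 19 Wnt ligands and Porcn at E18.5 (circles), P3 (squares) and 10 weeks (triangles), ordered by the P3 value, with 1 value per gene and age. Wnt4 is rightmost at every age, and the squares of Wnt4, Wnt7b, Wnt10a, Wnt11 and Wnt3a stand apart to the right of both other symbols.

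The order of the ligands differed between ages. At E18.5, Wnt4 was followed by Wnt5a, Wnt6 and Wnt10b, all between 10.8 and 11.5 FPKM. At P3 the next were Wnt7b, Wnt3 and Wnt10a, and at 10 weeks Wnt3, Wnt5a and Wnt7b. Neighbours as close as Wnt5a and Wnt6 at E18.5 cannot be ranked without replicates. The 19 ligands summed to 102 FPKM at E18.5, 205 at P3 and 79.1 in the adult, and Wnt4 made up 24.6% before birth, 34.2% in the newborn and 19.1% in the adult. Beside this, 4 of 7 basal keratinocyte markers were higher at P3 relative to E18.5, among them Krt5 at 2638 FPKM at P3, against 1058 FPKM at E18.5. Their part, and that of the hair keratins, in the ligand values was not tested.

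Promoter sequences are shown for 3 ligands that were higher at P3 relative to E18.5, so that a reader can see what sequence lies upstream of them. Wnt4 and Wnt11 were lower at 10 weeks relative to P3, while Wnt3 stayed under 2-fold there (log2 difference -0.63). Each window runs from 250 bases before to 50 bases after a gene start and was taken from RefSeq, build GRCm38.p6, with Wnt4 at chr4:137277385-137277684 on the plus strand, Wnt3 at chr11:103773925-103774224 on the plus strand and Wnt11 at chr7:98834862-98835161 on the plus strand. Capitals mark every match, on either strand, of CTTTGAT or CTTTGTT, letters that Tcf and Lef proteins can bind, and of TATAAA, the TATA box.
Wnt4: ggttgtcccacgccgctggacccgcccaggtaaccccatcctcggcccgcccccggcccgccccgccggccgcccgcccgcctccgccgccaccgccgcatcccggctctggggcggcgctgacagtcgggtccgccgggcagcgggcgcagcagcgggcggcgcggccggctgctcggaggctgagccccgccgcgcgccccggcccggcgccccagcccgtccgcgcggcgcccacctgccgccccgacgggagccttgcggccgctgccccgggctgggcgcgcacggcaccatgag
Wnt3: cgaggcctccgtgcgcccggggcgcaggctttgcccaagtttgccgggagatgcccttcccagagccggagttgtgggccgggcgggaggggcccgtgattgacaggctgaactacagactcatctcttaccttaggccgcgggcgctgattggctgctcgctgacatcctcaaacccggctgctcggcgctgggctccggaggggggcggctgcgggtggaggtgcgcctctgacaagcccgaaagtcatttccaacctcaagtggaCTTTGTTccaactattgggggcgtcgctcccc
Wnt11: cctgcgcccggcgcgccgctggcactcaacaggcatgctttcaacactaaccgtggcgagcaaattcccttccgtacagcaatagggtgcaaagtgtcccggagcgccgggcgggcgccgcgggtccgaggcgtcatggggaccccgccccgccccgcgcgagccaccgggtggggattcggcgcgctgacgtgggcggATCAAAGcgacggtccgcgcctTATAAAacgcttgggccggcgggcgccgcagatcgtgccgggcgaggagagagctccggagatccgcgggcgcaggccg
The Wnt4 window holds no match and is 84.3% G and C, with 51 CpG pairs. The Wnt3 window holds 1 CTTTGTT, beginning 19 bases into the gene. The first listed start of Wnt11 has CTTTGAT on the other strand, first base at -51 (printed as ATCAAAG), and TATAAA at -29. The table held 40 starts for 33 of the 53 genes. Of these 40 windows, 5.0% held CTTTGAT, 7.5% CTTTGTT and 17.5% TATAAA, against 3.22%, 5.01% and 12.6% of the 21263 windows of protein-coding genes. The members' windows were richer in G and C than those of protein-coding genes, with medians of 67.2% and 56.3%. A match is a run of letters only, and nothing about the binding of a factor was measured.

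Porcn, the enzyme that attaches the lipid to every Wnt ligand, followed the ligands of the newborn. It had 3.13 FPKM at E18.5, 11.5 at P3 and 4.95 in the adult, with log2 differences of 1.60 for P3 over E18.5 and -1.07 for 10 weeks over P3. The second of these ends with a pseudocount of 5 FPKM. Porcn lies on the X chromosome, and the E18.5 sample differs from the others in sex, as given above. The part of sex in the difference between P3 and E18.5 was not tested. Wls, which carries the lipid-modified ligand to the cell surface, was more abundant, with 71.1 FPKM at E18.5, 93.1 at P3 and 60.8 in the adult, and passed 2-fold in no comparison.

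The Frizzled receptors divided by age, with Fzd10, Fzd5 and Fzd6 higher in the newborn and Fzd4 highest in the adult. Of the 10, 3 were higher and 0 lower at P3 relative to E18.5, against 9.56% and 9.42% of all genes. From P3 to 10 weeks, 2 were higher, near the 19.8% of all genes, and 2 lower, against 9.98%. The median log2 difference of this family was 0.40 for P3 over E18.5, -0.33 for 10 weeks over P3 and 0.39 for 10 weeks over E18.5. Fzd10 (chromosome 5, 129106981 to 129109968) was the most abundant at E18.5 and P3, with 19.7 FPKM at E18.5, 45.3 at P3 and 9.69 in the adult. Its log2 difference was 1.16 for P3 over E18.5, a call that ends under upper-quartile scaling, and -2.12 for 10 weeks over P3. Fzd5 showed 2.43 FPKM at E18.5, 9.87 at P3 and 2.43 in the adult, so that its E18.5 and 10-week values were nearly equal. Fzd6, which sets the direction of hairs in mouse skin, had 11.5 FPKM at E18.5, 26.1 at P3 and 13.4 in the adult. It was higher at P3 relative to E18.5 (log2 difference 1.11), which ends with a pseudocount of 5 FPKM or upper-quartile scaling.

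Fzd4 (chromosome 7, 96552876 to 96558620), known as the receptor of Norrin in blood vessels as well as of Wnts, had 17.1 FPKM at E18.5, 8.45 at P3 and 45.3 in the adult. It was higher in the adult than at both other ages, with log2 differences of 2.29 over P3 and 1.35 over E18.5. The difference of -0.94 for P3 over E18.5 passes 2-fold with a pseudocount of 0.1 FPKM (-1.01) and under median-of-ratios (-1.05) or upper-quartile (-1.14) scaling. Endothelial markers had the same low point, with 176 FPKM at E18.5, 57.0 at P3 and 150 in the adult summed over 6 genes. Of these 6, 0 were higher at 10 weeks relative to E18.5. The fibroblast, adipocyte, skeletal muscle, macrophage and dermal papilla lists also had their lowest sums at P3. The part of any of these markers in the Fzd4 values was not tested. The FPKM of Fzd4 relative to Fzd10, a ratio that no scaling between ages can alter, was 0.867 at E18.5, 0.186 at P3 and 4.68 in the adult. In the adult, Fzd4 alone made up 34.1% of the summed Frizzled FPKM.

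The remaining Frizzled genes differed less between the ages, Fzd9 excepted. Fzd1 had 13.7 FPKM at E18.5, 27.5 at P3 and 21.5 in the adult, with a log2 difference of 0.95 for P3 over E18.5, just under the threshold. Neither relative of Fzd1 came as close to it. Fzd7 had 14.0 FPKM at E18.5, 21.95 at P3 and 21.4 in the adult, and Fzd2 had 16.7 FPKM at E18.5, 14.6 at P3 and 11.4 in the adult. Fzd3, the closest relative of Fzd6, stayed between 2.14 and 3.05 FPKM and Fzd8 between 1.71 and 3.32 FPKM. Fzd9 was the rarest, with 0.731 FPKM at E18.5, 0.221 at P3 and 2.20 in the adult, higher at 10 weeks relative to P3 except with a pseudocount of 5 FPKM. The co-receptors passed 2-fold in no comparison: Lrp5 had 16.4 FPKM at E18.5, 26.4 at P3 and 16.4 in the adult, and Lrp6 had 12.1 FPKM at E18.5, 14.6 at P3 and 16.9 in the adult. Summed Frizzled FPKM came to 100.3 at E18.5, 158.7 at P3 and 132.8 in the adult.

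**Figure D3:**
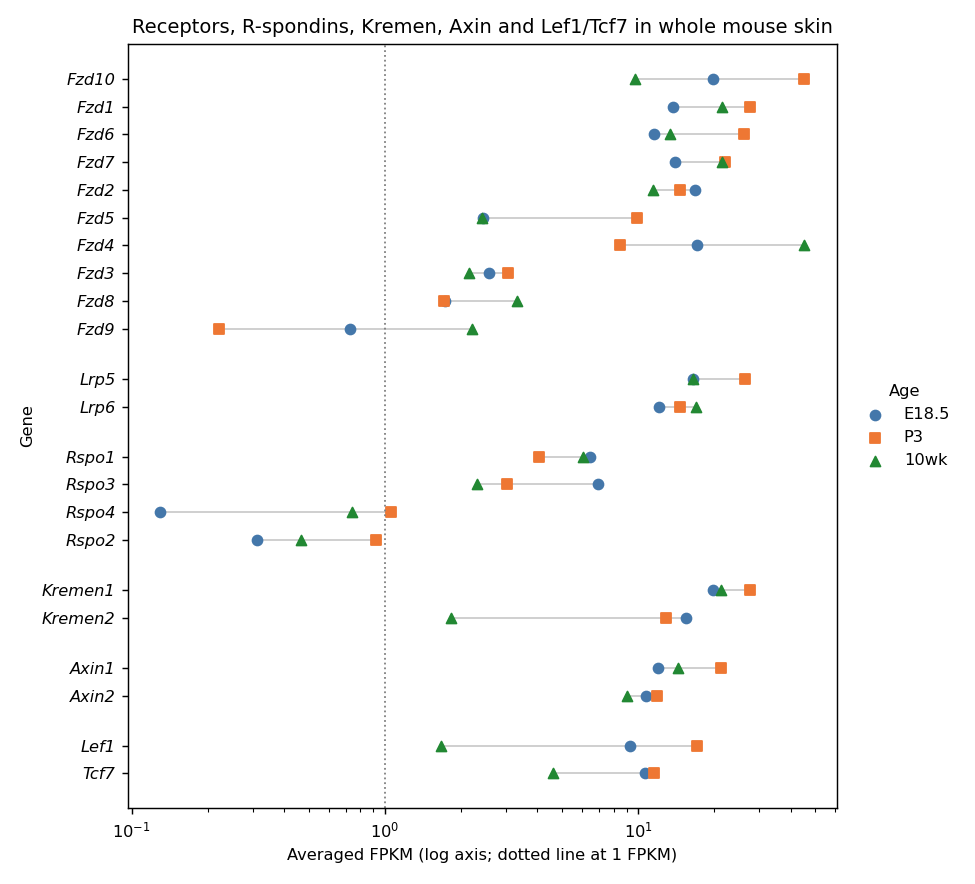
Averaged FPKM (log axis) of Frizzled and Lrp receptors, R-spondins, Kremen, Axin, Lef1 and Tcf7 at E18.5 (circles), P3 (squares) and 10 weeks (triangles), with 1 value per gene and age. The triangle of Fzd4 lies far to the right of its square, while those of Kremen2 and Lef1 lie far to the left.

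R-spondins amplify Wnt signals by binding Lgr receptors and removing the ubiquitin ligases Znrf3 and Rnf43, which otherwise clear Frizzled from the surface. They were low at all ages. Rspo1 had 6.42 FPKM at E18.5, 4.06 at P3 and 6.03 in the adult, under 2-fold throughout. Rspo3, also needed by growing vessels, had 6.96 FPKM at E18.5, 3.04 at P3 and 2.30 in the adult and was lower at 10 weeks relative to E18.5 (log2 difference -1.27), except with a pseudocount of 5 FPKM. Rspo4, mutated in people born without nails, had 0.130 FPKM at E18.5, 1.06 at P3 and 0.744 in the adult, and Rspo2 did not exceed 0.922 FPKM. Summed R-spondin FPKM relative to summed ligand FPKM came to 0.136 at E18.5, 0.0443 at P3 and 0.121 in the adult.

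Their receptors and the ligases were highest at P3 without passing 2-fold against E18.5. Lgr4 had 15.1 FPKM at E18.5, 21.6 at P3 and 10.6 in the adult. Lgr5, a marker of the growing and resting follicle base, had 6.96 FPKM at E18.5, 9.87 at P3 and 4.92 in the adult. Lgr6, found above the follicle bulge, had 8.36 FPKM at E18.5, 15.6 at P3 and 5.86 in the adult and was lower at 10 weeks relative to P3 (log2 difference -1.27). Of the 5 genes of this list, 2 were lower past the threshold in that comparison, against 9.98% of all genes. They were Lgr6 and, named after its values were seen, Znrf3 (-1.06).

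Kremen1 and Kremen2 bind Dkk proteins and help them remove Lrp6 from the surface. They parted in the adult. Kremen1 had 19.7 FPKM at E18.5, 27.6 at P3 and 21.3 in the adult, while Kremen2 (chromosome 17, 23878166 to 23882796) had 15.4 FPKM at E18.5, 12.8 at P3 and 1.82 in the adult. The log2 difference of Kremen2 was -2.29 for 10 weeks over P3 and -2.54 for 10 weeks over E18.5, and both stayed past 2-fold under every alternative tried. The ratio of Kremen1 to Kremen2 FPKM came to 1.28 at E18.5, 2.15 at P3 and 11.7 in the adult.

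Several secreted inhibitors were higher in the adult, and others were lower. Of the 10 compared, 6 were higher and 0 lower at 10 weeks relative to P3, where 19.8% of all genes were higher and 9.98% lower. At 10 weeks relative to E18.5, 4 were higher and 3 lower, against 16.1% and 6.92% of all genes, and at P3 relative to E18.5, 3 were lower and 0 higher, against 9.42% and 9.56%. Their median log2 difference was -0.29 for P3 over E18.5, 1.15 for 10 weeks over P3 and 0.60 for 10 weeks over E18.5. Sfrp4 (chromosome 13, 19715044 to 19724692), which binds Wnts through a Frizzled-like domain, had 2.73 FPKM at E18.5, 4.77 at P3 and 80.4 in the adult. Its log2 differences of 3.82 over P3 and 4.45 over E18.5 were the largest of any member in those comparisons. At 10 weeks it lay above 91.8% of expressed genes. Sfrp5, of the same family, had 0.778 FPKM at E18.5, 0.499 at P3 and 13.9 in the adult, and Sfrp1 had 6.53 FPKM at E18.5, 12.1 at P3 and 29.4 in the adult. All these calls held under every alternative tried. Frzb, also known as Sfrp3, had 3.19 FPKM at E18.5, 0.811 at P3 and 9.40 in the adult, with a log2 difference of 2.52 for 10 weeks over P3; its calls against E18.5 end with a pseudocount of 5 FPKM.

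Sfrp2 (chromosome 3, 83570243 to 83578236), a dermal fibroblast product, had its largest value before birth. It showed 48.7 FPKM at E18.5, 9.003 at P3 and 20.0 in the adult, a log2 difference of -2.31 for P3 over E18.5 and of -1.24 for 10 weeks over E18.5. The difference of 1.07 for 10 weeks over P3 ends with a pseudocount of 5 FPKM and under both other scalings. Wif1, which binds Wnts through its own domain, had 33.9 FPKM at E18.5, 17.5 at P3 and 8.42 in the adult, lower at each later age and past 2-fold at 10 weeks against E18.5 (log2 difference -1.89). Its steps of -0.92 to P3 and -0.97 to 10 weeks pass 2-fold under both other scalings. The ratio of Sfrp4 to Sfrp2 FPKM came to 0.0561 at E18.5, 0.529 at P3 and 4.01 in the adult, so that the leading family member differed between E18.5 and the adult.

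Dkk1, the Lrp blocker, had 3.47 FPKM at E18.5, 0.533 at P3 and 0.117 in the adult. It was lower at both later ages relative to E18.5, with a log2 difference of -1.55 at P3, and both calls end with a pseudocount of 5 FPKM. Dkk2, of the same family, had 3.13 FPKM at E18.5, 2.30 at P3 and 6.75 in the adult and was higher at 10 weeks relative to P3, again except with a pseudocount of 5 FPKM. Dkk3, the divergent member that does not act like Dkk1 on Lrp6, showed 9.87 FPKM at E18.5, 11.1 at P3 and 10.7 in the adult. Notum had 3.30 FPKM at E18.5, 4.03 at P3 and 4.29 in the adult. Dkk3 and Notum thus passed 2-fold in no comparison. Dkk4, a product of hair placodes in mouse embryos, had 0.927 FPKM at E18.5, 0.320 at P3 and 0.0690 in the adult.

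Fibroblast markers had their low point at P3, with 3435 FPKM at E18.5, 1258 at P3 and 4368 in the adult summed over 8 genes. Of these 8, 7 were lower at P3 relative to E18.5, and 5 were higher and 0 lower at 10 weeks relative to P3. At 10 weeks relative to E18.5, 3 were higher and 3 lower. Sfrp2, Sfrp5 and Frzb also had their smallest values at P3, but Sfrp4 and Sfrp1 had theirs at E18.5. The part of these markers, and of the smooth muscle list (5 of 5 higher at 10 weeks relative to P3), in the inhibitor values was not tested. Dermal papilla markers were, like Wif1, lower in the adult than at E18.5, with 6 of 9 compared lower and 0 higher. At 10 weeks relative to P3, 2 of these 9 were lower and 1 higher. The sums over 10 genes were 153 FPKM at E18.5, 62.8 at P3 and 82.4 in the adult. The part of the dermal papilla markers in the Wif1 value was not tested.

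**Figure D4:**
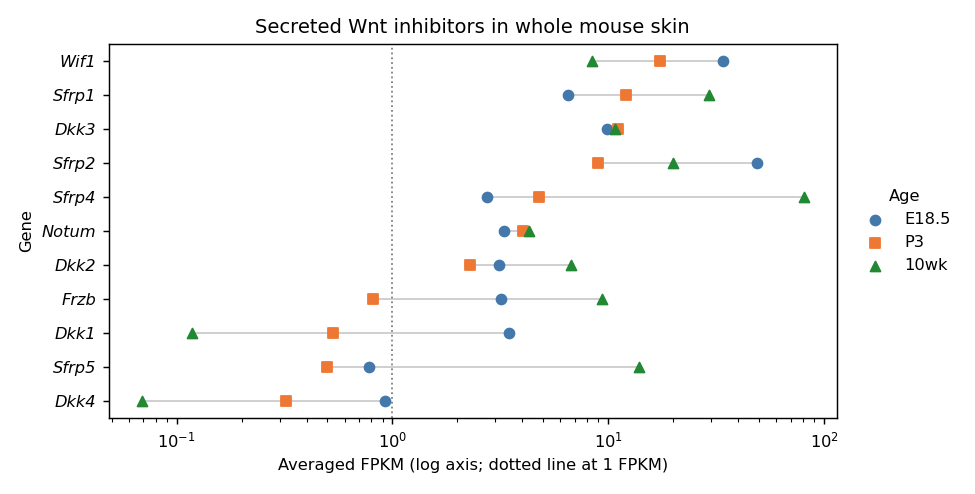
Averaged FPKM (log axis) of the 11 secreted inhibitors and inactivators at E18.5 (circles), P3 (squares) and 10 weeks (triangles), with 1 value per gene and age. The triangles of Sfrp4, Sfrp1, Sfrp5 and Frzb lie to the right of both other symbols, and the circles of Sfrp2, Wif1 and Dkk1 to the right of theirs.

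Promoter windows of 3 inhibitors are shown because the genes differ in the age of their largest value, E18.5 for Dkk1 and Wif1 and 10 weeks for Dkk2. They lie in the same build, with Dkk1 at chr19:30549447-30549746 on the minus strand, Dkk2 at chr3:132085042-132085341 on the plus strand and Wif1 at chr10:121033754-121034053 on the plus strand, and capitals have the meaning given above.
Dkk1: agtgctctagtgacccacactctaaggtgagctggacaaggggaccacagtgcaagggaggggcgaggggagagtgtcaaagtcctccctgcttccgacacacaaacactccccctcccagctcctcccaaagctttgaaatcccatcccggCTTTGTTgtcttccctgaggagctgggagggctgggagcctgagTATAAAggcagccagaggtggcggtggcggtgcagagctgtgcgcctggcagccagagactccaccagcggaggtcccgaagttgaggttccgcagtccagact
Dkk2: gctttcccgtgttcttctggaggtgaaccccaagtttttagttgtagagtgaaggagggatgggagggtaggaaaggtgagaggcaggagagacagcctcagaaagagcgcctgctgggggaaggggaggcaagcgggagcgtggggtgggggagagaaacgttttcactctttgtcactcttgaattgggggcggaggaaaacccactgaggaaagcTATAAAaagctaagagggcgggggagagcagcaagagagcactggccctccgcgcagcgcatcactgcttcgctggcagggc
Wif1: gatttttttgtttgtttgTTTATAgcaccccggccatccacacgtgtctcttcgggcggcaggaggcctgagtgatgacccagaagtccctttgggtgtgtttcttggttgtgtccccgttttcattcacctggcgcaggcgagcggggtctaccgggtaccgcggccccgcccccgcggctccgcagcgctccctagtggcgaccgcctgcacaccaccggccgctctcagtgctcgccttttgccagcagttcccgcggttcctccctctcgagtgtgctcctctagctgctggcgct
Dkk1 holds CTTTGTT with its first base at -98 and TATAAA at -54. Dkk2 holds TATAAA at -32. Wif1 holds TATAAA on the other strand, at -232, printed as TTTATA. Dkk1 and Dkk2 had few CpG pairs, 9 and 11, against 25 in Wif1 and a median of 13 over the windows of protein-coding genes.

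Inside the cell, the Axin scaffolds passed 2-fold in no comparison. Axin1 had 12.0 FPKM at E18.5, 21.1 at P3 and 14.3 in the adult. Axin2, a widely used feedback target of beta-catenin, had 10.7 FPKM at E18.5, 11.9 at P3 and 9.02 in the adult, a largest log2 difference in size of -0.36. Lef1 (chromosome 3, 130813389 to 130926249), which carries beta-catenin to DNA in the hair matrix, had 9.27 FPKM at E18.5, 17.1 at P3 and 1.66 in the adult. Its log2 differences of -2.76 for 10 weeks over P3 and -1.95 for 10 weeks over E18.5 held under every alternative tried. Tcf7 had 10.6 FPKM at E18.5, 11.6 at P3 and 4.62 in the adult and was lower at 10 weeks than at both earlier ages, except with a pseudocount of 5 FPKM. Lef1 and Tcf7 were thus lowest in the adult, whereas Axin2 kept most of its level.

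Of 5 T cell markers, which belong to a cell type that also expresses Lef1 and Tcf7, 4 were higher and 0 lower at 10 weeks relative to P3 with sums of 2.40 FPKM at E18.5, 3.15 at P3 and 29.0 in the adult. Hair keratins (15 of 15 lower at 10 weeks relative to P3, sums of 249 FPKM at E18.5, 5257 at P3 and 270 in the adult) and proliferation genes (7 of 7 lower, sums of 240 FPKM at E18.5, 274 at P3 and 39.1 in the adult) were lower together with Lef1. The part of any of these markers in the Lef1 and Tcf7 values was not tested. Tcf7l1, a repressor of the same family in follicle stem cells, had 12.5 FPKM at E18.5, 11.9 at P3 and 10.5 in the adult, and Tcf7l2 had 5.06 FPKM at E18.5, 4.73 at P3 and 3.85 in the adult, both under 2-fold throughout.

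Summed over the genes chosen by name, the balance of inhibitor to ligand RNA turned between the ages. The 11 secreted inhibitors summed to 116.4 FPKM at E18.5, 62.8 at P3 and 183.4 in the adult. Relative to the 19 ligands this was 1.14 at E18.5, 0.307 at P3 and 2.32 in the adult. With only the Wnt-binding inhibitors, the 4 Sfrp genes, Frzb and Wif1, the ratio was 0.939 before birth, 0.218 in the newborn and 2.04 in the adult. These ratios are formed within an age and do not depend on the scaling between ages, but a sum is led by its most abundant genes. Inhibitors outside the name rule are not in the sums, so the ratios depend on the genes chosen. Sostdc1 had 37.7 FPKM at E18.5, 59.5 at P3 and 31.4 in the adult. Igfbp4 ran the other way, with 102.1 FPKM at E18.5, 89.6 at P3 and 156.8 in the adult. Both are named here after their values were seen. Sfrp2 made up 41.8% of the inhibitor sum at E18.5 and Sfrp4 43.8% at 10 weeks, while at P3 Wif1 led with 27.8%. FPKM is an RNA level, and nothing was measured of the proteins.

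**Figure D5:**
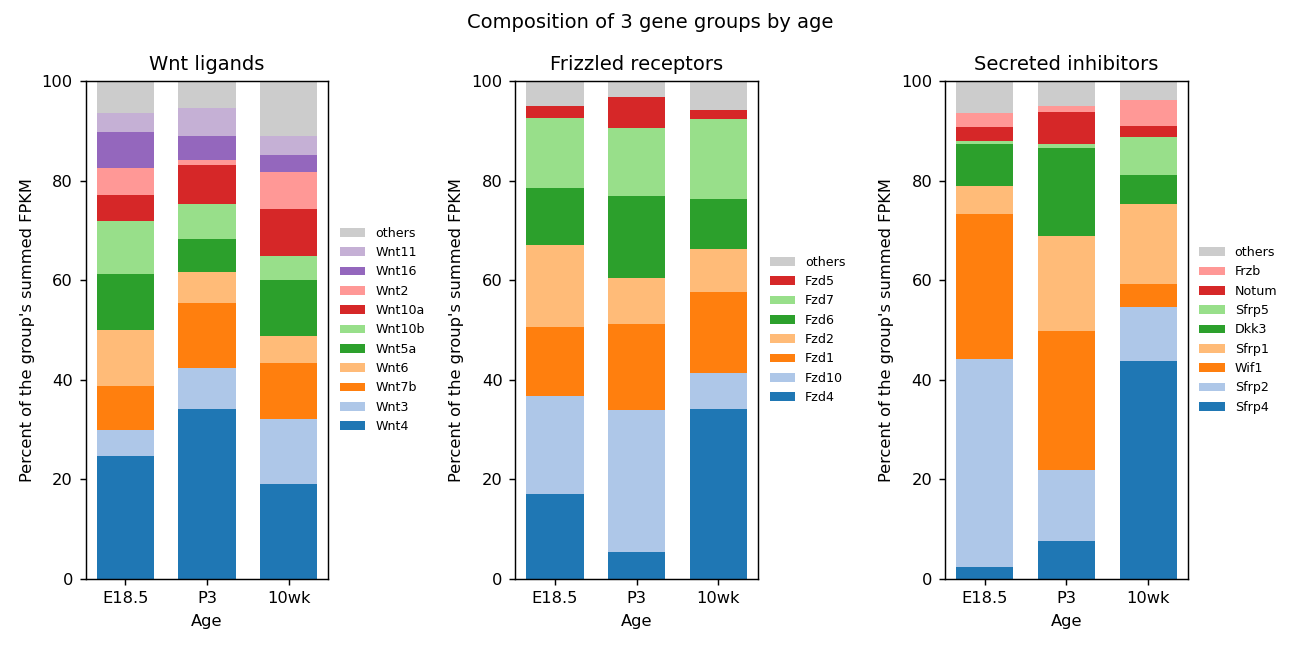
Share of each gene in the summed FPKM of its group at E18.5, P3 and 10 weeks, for 19 ligands, 10 Frizzled receptors and 11 secreted inhibitors; genes under 5% at every age are grouped as others. Wnt4 keeps the largest ligand share at every age, while the leading Frizzled is Fzd10 at E18.5 and P3 and Fzd4 at 10 weeks, and the leading inhibitor is Sfrp2, then Wif1, then Sfrp4.

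A list of 69 other pathway genes, 65 of which were compared, was mostly below 2-fold. At P3 against E18.5, 9 of the 65 were higher and 3 lower, against 9.56% and 9.42% of all genes. At 10 weeks against P3, 2 were higher and 14 lower, against 19.8% and 9.98%, and at 10 weeks against E18.5, 2 were higher and 6 lower, against 16.1% and 6.92%. Their median log2 differences in these comparisons were 0.45, -0.56 and -0.20, while those of all genes were 0.03, 0.14 and 0.22. Of the 9 higher at P3, 5 belong to the 14 compared genes of planar polarity and the beta-catenin-independent routes. That is 35.7% of these 14, against 9.56% of all genes. Celsr1 and Celsr2, the polarity cadherins, had 18.5 and 23.5 FPKM at P3, against 5.35 and 6.98 FPKM at E18.5, a log2 difference of 1.62 for each. Daam1, which links Dishevelled to actin, had 32.1 FPKM at P3, against 13.2 FPKM at E18.5. Ptk7, a polarity co-receptor, was lower in the adult, at 10.3 FPKM at 10 weeks, against 42.1 FPKM at P3. Ror2, a receptor of Wnt5a, had 4.23 FPKM at E18.5, 3.53 at P3 and 2.27 in the adult, under 2-fold.

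Beta-catenin itself, Ctnnb1, had 350.3 FPKM at E18.5, 388.3 at P3 and 213.1 in the adult and passed 2-fold in no comparison. Of 15 cytoplasmic components compared, 1 was higher at P3 relative to E18.5, against 9.56% of all genes. Of the same 15, 1 was lower at 10 weeks relative to P3, against 9.98% of all genes. Both calls were Csnk1e, a kinase that acts on Dishevelled and is named here after its values were seen. Ctnnbip1, which keeps beta-catenin from Tcf proteins, had 68.3 FPKM at P3, against 27.9 FPKM at E18.5. Its 10-week value was 13.1 FPKM, a log2 difference of -2.30 over P3. Apcdd1, a membrane inhibitor of Wnt binding mutated in a human hair loss, had 79.9 FPKM at E18.5, 98.1 at P3 and 67.6 in the adult. Sost, which blocks Lrp5 and Lrp6 in bone, was low, with 0.0603 FPKM at 10 weeks, against 2.01 FPKM at E18.5, and Shisa2, whose frog relative holds Frizzled inside the cell, had 24.3 FPKM at 10 weeks, against 6.48 FPKM at E18.5. Of the 10 genes listed as beta-catenin targets, 4 were lower and 1 higher at 10 weeks relative to P3, against 9.98% and 19.8% of all genes. Among the lower ones, Msx2 had 3.34 FPKM at 10 weeks, against 29.9 FPKM at P3. At E18.5 Msx2 had 6.06 FPKM, a log2 difference of 2.13 for P3 over E18.5 and of -0.70, under 2-fold, for 10 weeks over E18.5. Edar, the ectodysplasin receptor, had 0.787 FPKM at 10 weeks, against 4.46 FPKM at P3. Ccnd1, a cyclin, was at 24.1 FPKM at 10 weeks, against 75.3 FPKM at P3. The higher one was Twist1, a dermal factor, at 28.7 FPKM at 10 weeks, against 11.0 FPKM at P3; at E18.5 it had 44.4 FPKM.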

How the data were processed

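Per the labels' protocols, total RNA was extracted with Trizol and libraries were made with an Illumina TruSeq kit. The deposited values are FPKM, per the file headers, averaged to 1 value per gene and age. The submitters' processing notes name Cufflinks 2.1.1, TopHat2 2.0.7 and build mm9. Neither the annotation, the strand setting nor the read numbers are given in the sources used here, so depth is unknown and no counting interval can be stated. Values at 0 with a failure mark (3 at E18.5, 7 at P3) were left out; no Wnt gene bore such a mark or a 0. Starts in the tables count from 0, so 1 was added.

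Differences were log2 of (FPKM + 1), later over earlier age, for rows reaching 1 FPKM at 1 or more ages, called at a size of at least 1 (Python 3.11.15, pandas 2.3.3). The calling step was run on simulated data with planted changes well past the threshold and little noise. This checks the code only and says nothing about the calls reported here. No test was run, since each age has 1 value. Every member is given. Of 69 other pathway genes, up to 6 per comparison with the largest differences and 9 fixed ones are named. A few more are marked as named after their values were seen. Of the list genes, 4 were matched by an older symbol. Members and lists were chosen with earlier results of these data known. The 7 alternatives were pseudocounts of 0.1 and 5 FPKM, no filter, a minimum of 5 FPKM, median-of-ratios and upper-quartile scaling, and leaving out every value with a failure mark.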

Additional observations from a re-analysis of the deposited data

How the results depend on the processing

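Of 54 calls of single Wnt genes over the 3 comparisons, 28 held under each of the 7 alternatives that gave a value, 26 were lost under 1 or more, and none changed sign. The pseudocount of 5 FPKM ended 25 calls, upper-quartile scaling 3 and median-of-ratios scaling 1. The median log2 difference of the Wnt genes ranged from 0.06 to 0.40 for P3 over E18.5, from -0.54 to -0.27 for 10 weeks over P3 and from -0.18 to 0.11 for 10 weeks over E18.5. A pseudocount of 0.1 FPKM gave 7 Wnt genes lower at P3 relative to E18.5 (4 as reported) and 10 higher at 10 weeks relative to E18.5 (5 as reported). At this setting 14.7% of all genes were lower in the first comparison and 19.9% higher in the second, so both member counts were near the background. A pseudocount of 5 FPKM gave 1 Wnt gene lower at P3 relative to E18.5, 5 higher and 8 lower at 10 weeks relative to P3, and 4 lower at 10 weeks relative to E18.5. With it, the other pathway genes came to 5 higher and 1 lower at P3 against E18.5, 1 higher and 9 lower at 10 weeks against P3, and 1 higher and 2 lower at 10 weeks against E18.5. The shares of all genes with this pseudocount were 5.75% higher and 4.27% lower, 10.9% and 6.13%, and 8.69% and 3.83%, in the same order. A pseudocount this large shrinks the differences of low genes by construction; for the other changes the cause was not tested. Both other scalings gave 7 Wnt genes lower at P3 relative to E18.5, adding Fzd4, Rspo3 and Wif1, and made Wif1 lower at 10 weeks relative to P3 and Fzd10 lower at 10 weeks relative to E18.5. The share of all genes lower at P3 relative to E18.5 was 11.1% under median-of-ratios and 12.6% under upper-quartile scaling. Upper-quartile scaling gave 5 other pathway genes higher at P3 relative to E18.5, against 7.5% of all genes. Both scalings, and the minimum of 5 FPKM, left 1 other pathway gene higher at 10 weeks relative to P3 and 1 higher than at E18.5. At these settings 18.3% to 19.5% of all genes were higher relative to P3 and 12.2% to 16.6% relative to E18.5. Leaving out the filter or the values with a failure mark moved no call of a Wnt gene. No paired analysis was possible because each age has 1 averaged column with no replicate number. Depth is unknown, so that the precision of values under about 1 FPKM cannot be stated.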

Other observations

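Some Wnt ligand genes lie next to one another on a chromosome. In mm9, 4 pairs lie within 100 kb: Wnt6 and Wnt10a (6699 bases apart on chromosome 1), Wnt10b and Wnt1 (11706 bases, chromosome 15), Wnt3a and Wnt9a (16178 bases, chromosome 11) and Wnt9b and Wnt3 (24353 bases, chromosome 11). Wnt3 had 5.38 FPKM at E18.5, 16.6 at P3 and 10.4 in the adult beside Wnt9b with 0.0408 FPKM at E18.5, 0.162 at P3 and 0.180 in the adult. Wnt10b had 10.8 FPKM at E18.5, 14.3 at P3 and 3.85 in the adult beside Wnt1 with 0.0257 FPKM at E18.5, 0.0285 at P3 and 0.0677 in the adult. Wnt6 and Wnt10a were both present at every age but in a different order, with Wnt10a at 16.2 FPKM and Wnt6 at 12.9 FPKM at P3, and Wnt10a at 5.43 FPKM and Wnt6 at 11.5 FPKM at E18.5. Wnt3a and Wnt9a were close at E18.5 (1.15 FPKM and 1.25 FPKM). Wnt3a was the larger of its pair at P3 (4.41 FPKM, with Wnt9a at 1.30 FPKM), and Wnt9a the larger at 10 weeks (2.80 FPKM, with Wnt3a at 1.33 FPKM). In each pair with a member under 1 FPKM at all ages, the scarce gene was Wnt1 or Wnt9b, ligands known from the midbrain and the kidney.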
